A study of Mus musculus with 4 samples.

Results

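The 10 genes described here code for transcription factors that set neutrophil against monocyte and macrophage fate, and were taken by symbol from the 32285 genes of the count tables. They are the C/EBP genes Cebpa, Cebpb, Cebpd and Cebpe, the repressor Gfi1, the ETS factor Spi1 (PU.1), Irf8, Klf4, Runx1 and Myc. They were measured by single cell RNA sequencing (scRNA-seq) of myeloid-derived suppressor cells (MDSCs) grown from mouse bone marrow for 4 days with IL-6 and GM-CSF at 40 ng/mL each, and sorted as live CD11b+ cells. The 4 libraries, 1 per group, came from wild type (WT) C57BL/6 mice and from knockout mice of the same background labelled B2AR-/-, each grown with the β-adrenergic agonist isoproterenol (ISO, 10 µM from the start of culture) or without it (PBS). The animals of the study were 6 to 10 weeks old, and whether the marrow of several mice was pooled is not given in the sources used here. The groups follow the sample titles, since the treatment field of the labels gives isoproterenol for all 4 samples.

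Granulocyte-monocyte progenitors hold PU.1, C/EBPα and Runx1 together. High Irf8 and Klf4 accompany the monocyte, macrophage and dendritic branches, whereas Gfi1 and C/EBPε accompany the granulocyte branch, in which Gfi1 represses monocyte genes and C/EBPε is needed for secondary granules. C/EBPβ and C/EBPδ respond to cytokines and stress and C/EBPβ carries emergency granulopoiesis, while Myc drives ribosome production and growth in dividing progenitors. ISO acts through receptors that raise cAMP, the second messenger that leads to phosphorylation of CREB, a factor that binds the cAMP response element.

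The promoters are shown because the cultures received a cAMP-raising agonist and cytokines that signal through STAT factors. RefSeq promoter entries (GRCm38.p6) were matched for 6 of the 10 genes, with 9 entries, and Cebpd, Cebpe, Spi1 and Myc were without one. The 250 bases before each start were searched on both strands for the whole cAMP response element TGACGTCA, its shorter form TGACG (which the whole element contains), the C/EBP motif TTGCNNAA, the PU.1 core GAGGAA, the Runx core TGTGGT, the Myc E-box CACGTG, the STAT motif TTCNNNGAA and the IRF motif (GAAA, 2 bases of any kind, GAAA). The stretch before Cebpb lies on the plus strand at chr2:167688665-167688914, that before Irf8 on the plus strand at chr8:120736108-120736357, and that before Klf4 on the minus strand at chr4:55532576-55532725. They are printed 5′ to 3′ in the sense of the gene, and the Klf4 stretch covers 150 bases from base 250 before its start. Capitals mark TGACG or its complement in Cebpb, the STAT motif in Irf8, and TGACG or its complement and then the E-box in Klf4.
Cebpb: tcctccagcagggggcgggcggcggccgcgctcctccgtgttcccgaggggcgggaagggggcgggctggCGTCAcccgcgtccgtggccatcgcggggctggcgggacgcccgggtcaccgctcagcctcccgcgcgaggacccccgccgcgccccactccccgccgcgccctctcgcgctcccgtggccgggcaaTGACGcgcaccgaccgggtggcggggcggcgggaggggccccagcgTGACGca
Irf8: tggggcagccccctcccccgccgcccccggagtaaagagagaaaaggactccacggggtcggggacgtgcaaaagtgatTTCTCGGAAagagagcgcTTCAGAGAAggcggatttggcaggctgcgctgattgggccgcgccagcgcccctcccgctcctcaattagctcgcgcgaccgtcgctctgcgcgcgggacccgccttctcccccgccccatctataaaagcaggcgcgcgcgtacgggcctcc
Klf4: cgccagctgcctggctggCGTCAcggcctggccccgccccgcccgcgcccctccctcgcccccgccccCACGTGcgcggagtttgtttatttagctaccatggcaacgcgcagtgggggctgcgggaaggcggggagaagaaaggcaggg

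Cebpb held 3 matches of TGACG, beginning 180, 53 and 7 bases before the start, and Klf4 held 1, beginning 232 bases before it. Of all 32841 promoters of this length, 17.8% held at least 1 TGACG. The whole element was in 0 of the 9 entries and in 1.55% of all promoters. The first Irf8 entry held 2 STAT motifs, at 171 and 153 bases before the start, where 7.02% of all promoters held at least 1. Klf4 and the upstream start of Runx1 each held 1 E-box, found in 6.02% of all promoters. Gfi1 held 1 C/EBP motif at its upstream start (9.57% of all promoters), and the downstream start of Runx1 held 1 PU.1 core (23.3%). For the Gfi1 motif and the Runx1 E-box, sequence of an annotated transcript of the same gene begins upstream of the match. Both matches may therefore lie in transcribed sequence. The Runx and IRF motifs matched in 0 of the 9 entries, and 14.1% and 2.98% of all promoters held them. A match is a run of letters and not a bound site, and binding was not measured.

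In the counts, 9303 cells passed the filters (2039 to 2790 per library), with 19357824 to 29400468 UMIs per library, a UMI being 1 tagged RNA molecule. Levels are given as CPM, UMIs of a gene per 1000000 UMIs of all genes in the same library or cluster. These are 3′ counts with no scale per gene length, so levels are compared between samples and not between genes. With 1 library per group there was no replicate and no test, and every interval is a 95% interval for counting error alone: exact Poisson for a level, exact binomial for a share of cells and conditional binomial for a ratio. A gene was called past 1.5-fold where 2 libraries differed by at least that factor, in either direction, with at least 100 UMIs in both together. The paper states that the cell suspensions were pooled before loading, and each library had its own leading multiplexing tag. Libraries shared 0 cell barcodes, and they are not taken here as separate captures. In B2AR-/-+ISO the leading multiplexing tag held 86.7% of a cell's tag UMIs at the median, against 94.8% to 97.8% in the other 3. Itgam, which codes for CD11b, was found in 85.2% to 88.4% of cells per library. Genotypes are given as labelled, and a check of them against the counts is not reported here.

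Clusters place the factors in cell types. The cells were clustered together without the factors and related genes among the variable genes. Of 8 clusters, cluster 6 (647 cells) was azurophil-granule neutrophil progenitor-like, with Mpo, Elane, Ctsg and Prtn3 among its 10 leading genes, beside the basophil gene Mcpt8. Clusters 5 (824 cells) and 3 (1075 cells) were specific-granule neutrophil-like, both with Camp among their 10 leading genes, behind Ncam1 in cluster 5 and behind Cpa6, Ltf and others in cluster 3. Retnlg, Mmp9 and Ly6g marked cluster 2 (1829 cells), called mature neutrophil-like. The macrophage-like cluster 1 (1860 cells) had Mrc1 and C1qb in front, with 3 macrophage markers in at least 10% of its cells, the fewest that allow a name. Fscn1 and Ccr7 marked the 102 cells of cluster 7, called migratory dendritic cell-like. Names could not be given to cluster 0 (1979 cells, with Gpnmb in front) and cluster 4 (987 cells, with Serpina3g in front). The median cell held 3242 UMIs in cluster 0 and 20540 in cluster 4.

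The factors of the granulocyte branch differed between the neutrophil-like clusters, given here in the order 6, 5, 3 and 2, which was chosen and not measured. Gfi1 was 75.2 CPM in cluster 6 (95% interval 70.9 to 79.8), 19.4 in cluster 5, 8.20 in cluster 3 and 2.80 in cluster 2. Cluster 6 alone held 69.4% of all Gfi1 UMIs, and it had the highest Gfi1 in 4 of 4 libraries. Gfi1 was itself among the 10 leading genes of that cluster, so this level describes the cluster.

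Cebpe was highest in another of these clusters, at 396 CPM in cluster 6, 660 in cluster 5, 542 in cluster 3 and 149 in cluster 2. The intervals of these 4 clusters did not overlap, and cluster 5 was highest in each of the 4 libraries. Cebpe thus stood highest in cluster 5, a specific-granule cluster, and Gfi1 in the azurophil-granule cluster. The 6 specific granule genes summed to 8906 CPM in cluster 6, 46846 in cluster 5, 61163 in cluster 3 and 48856 in cluster 2. In a finer clustering (resolution 1.0) the mature neutrophil-like cluster held 943 cells, with Cebpe at 45.7 CPM. A specific-granule neutrophil-like cluster of 987 cells had Cebpe at 214 CPM there, so the level in mature neutrophil-like cells depended on the clustering.

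Cebpa, the factor needed to enter the granulocyte-monocyte lineage, was 73.1 CPM in cluster 6 (68.8 to 77.6) and 12.5 to 18.4 in the other 7 clusters, among which neighbours in the order overlapped in their intervals. Cebpd was 193 to 211 CPM in the 4 neutrophil-like clusters and 178 in cluster 0, against 81.4 in cluster 1, 91.2 in cluster 4 and 29.2 in cluster 7. The intervals of Cebpd overlapped between clusters 5, 6 and 3, so no order is given among them. Cebpb had another order, with 1846 CPM in cluster 0, 1300 in cluster 1, 1191 in cluster 4 and 1121 in cluster 2, then 558 to 670 in clusters 3, 5 and 6, and 162 in cluster 7. Cluster 0 had the highest Cebpb in each of the 4 libraries, and its median cell was the poorest in RNA.

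Irf8 and Klf4 were lowest in the 4 neutrophil-like clusters. Irf8 was 487 CPM in the migratory dendritic cell-like cluster (451 to 524), 43.5 in the macrophage-like cluster, 22.2 in cluster 4 and 3.81 in cluster 0. In the 4 neutrophil-like clusters it was 0.603 to 1.76 CPM. The 102 cells of cluster 7 held 28.6% of all Irf8 UMIs. Klf4 was 81.7 CPM in cluster 1 (78.4 to 85.2), 52.0 in cluster 4, 13.4 in cluster 0 and 11.1 in cluster 7, against 1.83 to 3.77 in the neutrophil-like clusters. Both factors were therefore present in clusters 1 and 4, and in cluster 7 Irf8 was high with little Klf4. At resolution 1.0 the macrophage-like cluster held 1024 cells, with Klf4 at 93.8 CPM and Irf8 at 48.7. An unnamed cluster of 618 cells, with F13a1 and Nos2 among its leading genes, had 68.2 and 32.6. Another of 228 cells, with Rtn1 in front, had 58.2 and 57.0. The levels in cluster 1 are therefore not given as those of macrophages alone.

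Spi1 and Runx1 differed least between clusters. Spi1, which is needed by all myeloid cells, was 334 CPM in cluster 7 and 414 to 562 in the other 7. Runx1 was 286 CPM in cluster 6 and 287 in cluster 4, which overlapped in their intervals, and 501 in cluster 0. The highest cluster exceeded the lowest 1.68-fold for Spi1 and 1.75-fold for Runx1, and at least 5.85-fold for each of the other 8 factors.

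Myc was highest in clusters 6 (62.4 CPM) and 4 (50.1), then 26.2 in cluster 1, 19.9 in cluster 0 and 17.8 in cluster 5, and it was 10.8 or less in clusters 2, 3 and 7. The 15 growth genes listed as driven by Myc summed to 4434 CPM in cluster 6 and 4609 in cluster 4, where Myc was high, to 2929 in cluster 1, 1766 in cluster 0 and 1466 in cluster 5. In cluster 7, where Myc was lowest at 2.78 CPM, they summed to 2024, above clusters 0, 2, 3 and 5. Such a sum weighs each gene by its level, and in WT+PBS Ldha (1039 CPM) and Npm1 (829) were highest and Cad (9.84) lowest. The order of the single genes between clusters is not given here, so the sums are not read as following Myc. The 22 cell cycle genes did not follow the same order, with 4348 CPM in cluster 5, 3828 in cluster 4 and 3665 in cluster 6.

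**Figure D1:**
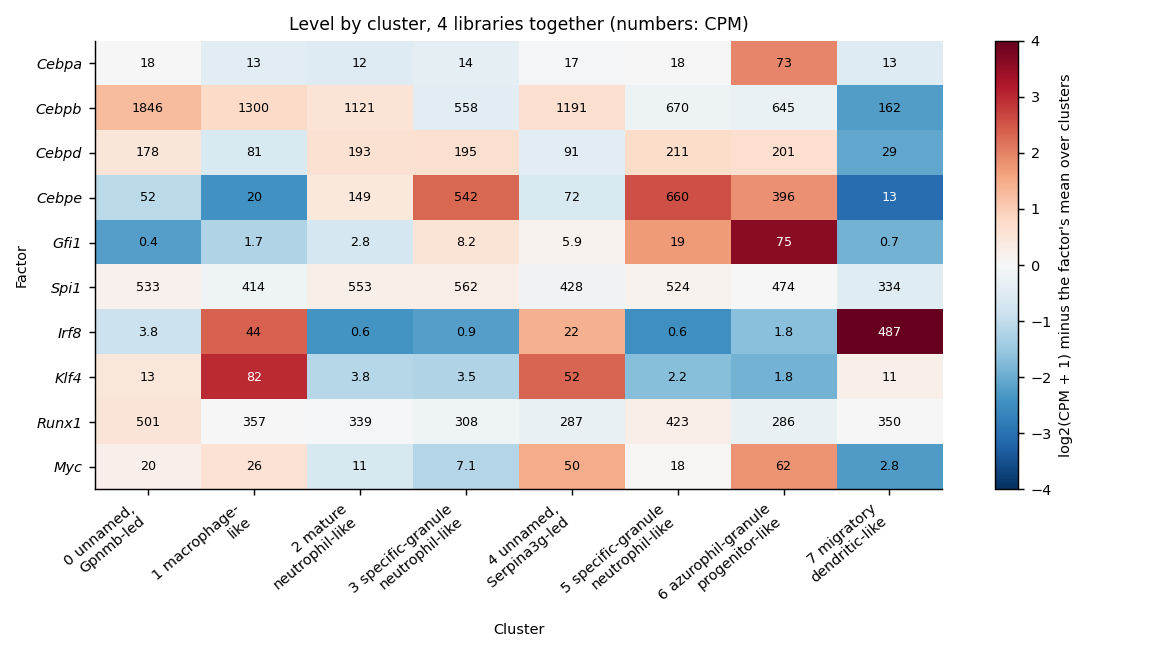
Level of each factor (rows) in each of the 8 clusters (columns), summed over the 4 libraries. The printed number is CPM, and colour is log2(CPM + 1) minus the mean of that factor over the clusters. Gfi1 and Cebpa stand out in cluster 6 (75.2 and 73.1 CPM), Cebpe in clusters 3, 5 and 6, Klf4 in clusters 1 and 4, and Irf8 in cluster 7 (487 CPM).

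RNA freed from other cells can give UMIs in cells that do not express a gene. In cluster 1, Camp, Ltf and Ngp stood at 0.980% to 1.45% of their level in the highest cluster, and Elane and Mpo at 0.640% and 0.631%. Cebpe stood there at 3.02% of its highest level, and Gfi1 at 2.25%. A Cebpe UMI was found in 17.7% of the cells of cluster 1, where 34.0% held a UMI of Camp. The part of free RNA in the low Cebpe and Gfi1 of clusters 1 and 7 was not tested.

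Gfi1 and Irf8 oppose each other in the choice between the granulocyte and monocyte branches, so cells with both were counted. After each cell was thinned to 2000 UMIs, 149 of 8593 cells held Gfi1, 231 held Irf8 and 3 held both, where the product of the shares within each cluster and library gives 0.935. This left out 127 to 218 shallower cells per library. Without thinning, 59 of 9303 cells held both, against 50.2 from the product. For Gfi1 and Klf4 the thinned counts were 2 cells and 2.53 from the product, and for Irf8 and Klf4, which share clusters, 31 cells and 25.8. Cebpa and Gfi1 were together in 17 thinned cells, against 13.1. These numbers are small, and doublets were kept, so no departure from the product is claimed.

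Across the 32 profiles of library by cluster, Cebpd and Irf8 ran most opposite, with a Pearson correlation of log2(CPM + 1) of -0.97, followed by Cebpe and Irf8 (-0.89) and Spi1 and Irf8 (-0.88). Cebpd and Spi1 (0.89), Cebpd and Cebpe (0.86) and Cebpe and Spi1 (0.80) ran most alike. Of 9238 genes with at least 500 UMIs, the 3 most like Irf8 were Ly86 (0.97), Vdr (0.96) and Spire1 (0.96), and those most like Gfi1 were Prss57 (0.95), Lta4h (0.93) and Nkg7 (0.93). The 3 most like Cebpe were Sept5, Arhgdib and Mogat2 (0.97 each), and for Cebpd they were Gmfg (0.96), Trem3 (0.95) and Arap3 (0.95). Klf4 was followed most closely by Ccr2 (0.95), AI504432 (0.93) and Dse (0.92), and Myc by Elac2 (0.94), Mmadhc (0.92) and Utp23 (0.92). For Cebpa they were Cmtm7 (0.86), Cst7 (0.85) and Frat2 (0.84). For Cebpb they were Clec5a (0.93), Atg3 (0.93) and Tmem43 (0.90), and for Spi1 F5 (0.95), Srpk2 (0.95) and Cklf (0.94). Runx1 had the weakest likenesses, to Rnasek (0.77), Nrf1 (0.76) and Lyrm2 (0.74). The 32 profiles share libraries and clusters, differ in depth, and include 4 of cluster 7, so these values are a description.

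The next comparison is of ISO with PBS in WT cells. In whole libraries Irf8 was lower with ISO by more than 1.5-fold, and the other 9 factors differed by less. In sums over a library, fewer cells of a type and less RNA per cell cannot be told apart. Irf8 was 26.5 CPM in WT+PBS (24.5 to 28.6) and 16.7 in WT+ISO (15.2 to 18.2), 1.59-fold lower. It was the 1 factor of 10 past 1.5-fold, where 6.5% of all 10771 genes were. With each cell given equal weight its log2 ratio was -0.45, short of 1.5-fold, and Gfi1 at 0.63 was past it.

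Klf4 was 28.7 CPM with PBS and 20.7 with ISO, a log2 ratio of -0.47 (-0.63 to -0.31). Cebpe was 199 and 287 CPM, a log2 ratio of 0.53 (0.48 to 0.58), and Gfi1 was 16.2 and 22.6 CPM, a log2 ratio of 0.48 (0.30 to 0.67). Each of these 3 differences lay beyond counting error and short of 1.5-fold. Cebpd was 133 and 160 CPM (0.27, 0.21 to 0.34) and Myc 33.6 and 38.7 (0.20, 0.07 to 0.33). The counting intervals of Cebpa, at 26.4 and 27.9 CPM, and of Runx1, at 344 and 335, overlapped. Spi1 was 472 and 498 CPM and Cebpb 1042 and 997. The median log2 ratio was 0.08 over the factors and -0.02 over all genes.

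**Figure D2:**
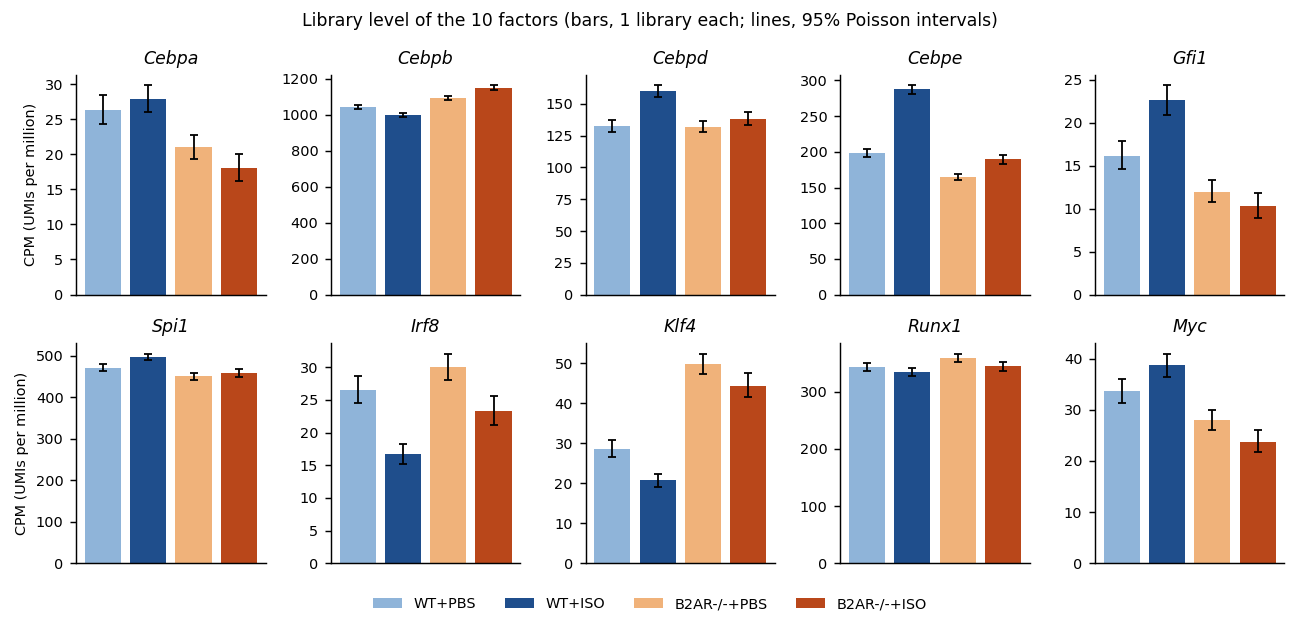
CPM of each factor (1 panel each, axis from 0) in the 4 libraries, as bars with exact Poisson intervals for counting error. Irf8 is lowest in WT+ISO at 16.7 CPM, Cebpe and Gfi1 are highest in WT+ISO, and Klf4 is higher in both B2AR-/- libraries (49.8 and 44.4 CPM) than in both WT libraries (28.7 and 20.7 CPM).

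The libraries differed in their make-up. Cluster 0 took 27.5% of the cells of WT+PBS and 16.7% of WT+ISO, and cluster 2 took 15.8% and 22.0%. Cluster 1 took 17.4% of the cells of WT+PBS and 10.6% of WT+ISO, cluster 7 took 1.67% and 0.707%, cluster 6 took 7.56% and 11.3%, and cluster 5 took 8.01% and 13.6%. When the clustering also left out 50 genes, those most different between WT+PBS and WT+ISO, the macrophage-like share was 19.0% and 11.9%, and that of the azurophil-granule progenitor-like cells, in a wider cluster, 16.0% and 24.6%. Each factor was therefore also compared at fixed cluster weights, with each cluster given the same share of the RNA in all 4 libraries. At fixed weights 0 of the 10 factors were past 1.5-fold, where 3.24% of all genes were. Irf8 was then 23.0 CPM with PBS and 24.1 with ISO, a log2 ratio of 0.07 (-0.11 to 0.24). Cebpe was 0.17 (0.12 to 0.22), Gfi1 0.10 (-0.08 to 0.28) and Klf4 -0.13 (-0.30 to 0.03).

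Within clusters Irf8 was not lower throughout. In cluster 1 it was 42.8 CPM with PBS and 44.1 with ISO, in cluster 4 it was 23.5 and 19.8, and in cluster 7 it was 403 and 520, the 1 cluster of 4 whose counting interval left out 0. The direction in the dendritic cell-like cells depended on the clustering: at resolution 1.0 their cluster held 25 cells of WT+PBS and 13 of WT+ISO, with Irf8 at 632 CPM (552 to 720) and 563 (470 to 669). The 37 cells of cluster 7 in WT+PBS held 236 of the 647 Irf8 UMIs of that library, and the 16 in WT+ISO held 143 of 490. Without cluster 7, Irf8 was 17.3 and 11.9 CPM, a log2 ratio of -0.54, which is short of 1.5-fold.

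Cebpe was higher with ISO in all 7 clusters with at least 20 UMIs, by 0.13 to 0.58 on the log2 scale. The counting interval lay above 0 in 6 of them, and the largest ratio was in cluster 1 (16.6 and 24.7 CPM). The part of free RNA there was not tested. Cluster 7, left out for its few UMIs, went the other way, with 16 Cebpe UMIs with PBS and 1 with ISO. In cluster 5, where Cebpe was highest, it was 624 CPM with PBS and 685 with ISO, and in cluster 4 it was 61.1 and 83.0. At resolution 1.0 its log2 ratio at fixed weights was 0.11, below the interval of 0.12 to 0.22 given above. A specific-granule neutrophil-like cluster of 987 cells then had 234 and 233 CPM, and another of 795 cells 638 and 693. The 6 specific granule genes were all higher in whole WT libraries with ISO, by a median of 0.56 on the log2 scale and of 0.21 at fixed weights. In the B2AR-/- libraries they were also all higher with ISO, by a median of 0.37, and of 0.11 at fixed weights. The medians over all genes in whole libraries were -0.02 in WT and -0.04 in B2AR-/-. The shares of all genes above 0 are not given here. In cluster 6 Gfi1 was 78.2 and 78.7 CPM, while Cebpa was 85.3 with PBS and 68.8 with ISO (log2 ratio -0.31, -0.52 to -0.10). Klf4 in cluster 1 was 67.2 and 55.3 CPM (-0.28, -0.52 to -0.05), and in cluster 4 it was 43.6 and 45.1.

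Of 45 other factors of myeloid fate, 41 had 100 UMIs, and of these 0 were past 1.5-fold upward with ISO in WT cells and 10 downward, where 5.50% of all genes were lower by as much. The list's median log2 ratio was -0.31, and -0.09 at fixed weights. Among these 10 were Zbtb46 (-1.70) of classical dendritic cells, Meis1 (-1.10) of stem cells, Egr2 (-1.06), Batf3 (-1.01) of dendritic cells, Id2 (-0.76), Runx3 (-0.69) and Irf4 (-0.68). At fixed weights 3 of the list were lower by 1.5-fold, among them Zbtb46 at -0.97 and Meis1 at -0.59, where 2.05% of all genes were lower by as much. These weights hold the 8 clusters fixed and not the make-up within each. At resolution 1.0 an unnamed cluster with Rtn1 in front and Ccl17 among its leading genes took 2.76% of the cells of WT+PBS and 0.398% of WT+ISO. Its part in the ratio of Zbtb46 was not tested. All 6 receptors listed under these factors had log2 ratios below 0 in whole libraries, 1 of them past 1.5-fold, and the median over all genes was -0.02. The counting interval of Csf2ra held 0 (-0.03, -0.11 to 0.04). At fixed weights Csf2rb was 0.21 and Csf2ra 0.002, and the others stayed below 0. Csf1r, the receptor for M-CSF, was 79.4 CPM with PBS and 46.9 with ISO, a log2 ratio of -0.76 that was -0.25 at fixed weights. Csf3r, the receptor for G-CSF, was 68.3 and 47.3 CPM, a log2 ratio of -0.53 that was -0.55 at fixed weights.

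The same comparison was made in the libraries labelled B2AR-/-, where fewer genes were past 1.5-fold, with 0 of 10 factors past 1.5-fold in whole libraries (1.58% of all genes) and 0 at fixed weights (1.14%). Irf8 was 30.01 CPM in B2AR-/-+PBS and 23.3 in B2AR-/-+ISO, a log2 ratio of -0.37 (-0.53 to -0.20), lower as in the WT libraries. Cebpe was 165 and 189 CPM (0.20, 0.14 to 0.26) and Klf4 49.8 and 44.4 (-0.16, -0.29 to -0.04). Gfi1 was 11.98 and 10.33 CPM (-0.21, -0.47 to 0.04), Cebpa 21.0 and 18.0 (-0.22, -0.42 to -0.03) and Myc 28.0 and 23.8 (-0.23, -0.40 to -0.07). Cebpd was 132 and 138 CPM, Cebpb 1093 and 1150, Spi1 451 and 459, and Runx1 360 and 345. For Cebpe the interval lay above 0 in 1 of 7 clusters and below 0 in another, cluster 6, where it was 394 CPM with PBS and 342 with ISO. Of the other factors of myeloid fate, 42 had 100 UMIs, and 0 were past 1.5-fold upward and 2 downward, with a median of -0.05. Among all genes, 0.587% were higher and 0.997% lower by as much.

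The log2 ratio in WT minus that in B2AR-/- was 0.70 for Gfi1 (0.38 to 1.01 from counting error), 0.44 for Myc (0.22 to 0.65) and 0.33 for Cebpe (0.25 to 0.41). At fixed weights it was 0.29 for Gfi1 (-0.02 to 0.60), 0.29 for Myc (0.07 to 0.51) and 0.14 for Cebpe (0.06 to 0.22). With 1 library per group, whether these differences exceed those between cultures was not tested.

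**Figure D3:**
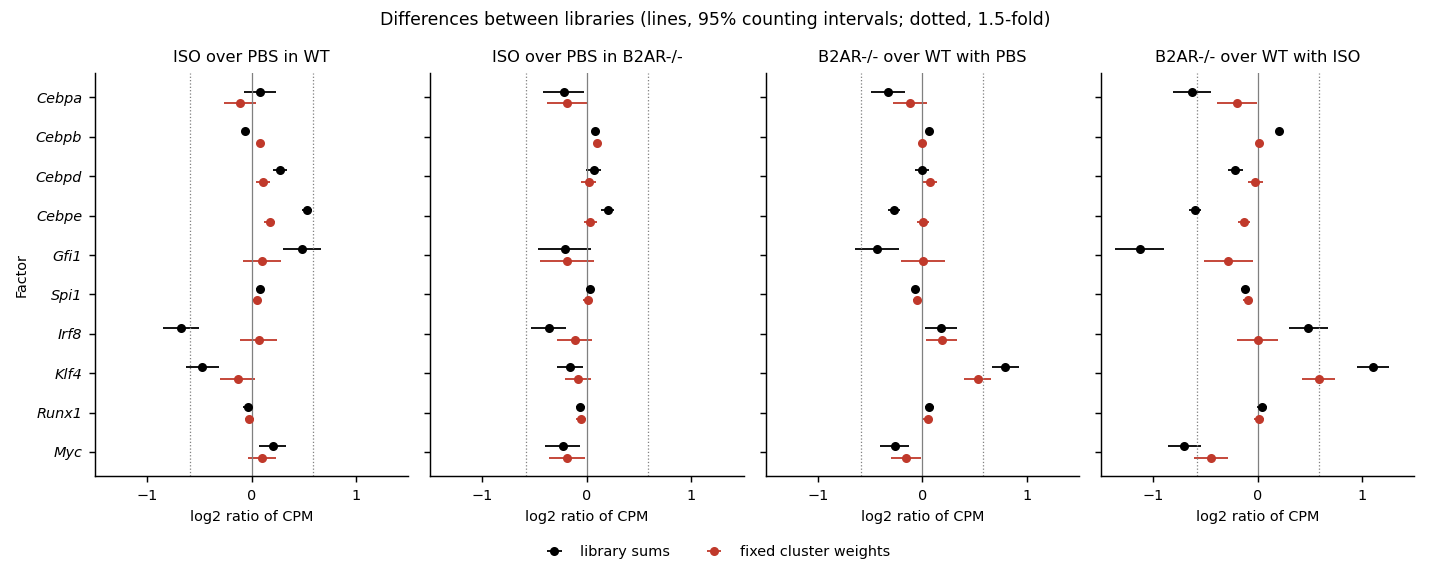
Log2 ratio of CPM for each factor (rows) in the 4 comparisons (panels). Black points are library sums and red points fixed cluster weights, lines are 95% counting intervals and dotted lines mark 1.5-fold. The black point of Irf8 lies past the dotted line with ISO in WT, and 5 black points do so for B2AR-/- over WT with ISO, while 0 red points do in any panel.

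Between genotypes in whole libraries, Klf4 had the largest ratio upward in the libraries labelled B2AR-/-, and Gfi1, Myc, Cebpa and Cebpe were lower there. With PBS, Klf4 was 28.7 CPM in WT (26.6 to 30.9) and 49.8 in B2AR-/- (47.2 to 52.5), 1.74-fold higher. It was the 1 factor past 1.5-fold, where 4.4% of all genes were. With ISO it was 20.7 and 44.4 CPM, 2.14-fold higher. With ISO, 5 of the 10 factors were past 1.5-fold, where 15.9% of all genes were. Klf4 was higher, Gfi1 was 22.6 CPM in WT and 10.3 in B2AR-/- (2.19-fold lower), Myc was 38.7 and 23.8 (1.63-fold lower), Cebpa 27.9 and 18.0 (1.55-fold lower) and Cebpe 287 and 189 (1.52-fold lower).

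In 8 of the 10 factors both B2AR-/- libraries lay on the same side of both WT libraries, against 62.2% of all genes. Both were above for Cebpb, Klf4 and Runx1, and both below for Cebpa, Cebpe, Gfi1, Spi1 and Myc. For Runx1 the gap was small, at 344 CPM in WT+PBS and 345 in B2AR-/-+ISO. Cebpd and Irf8 overlapped. Of the other factors of myeloid fate, 41 had 100 UMIs in each comparison. With PBS, 2 were higher by 1.5-fold in B2AR-/- and 1 lower, where 2.88% of all genes were higher and 1.52% lower. With ISO 15 were higher and 2 lower, where 9.08% of all genes were higher and 6.83% lower. At fixed weights with ISO, 5 were higher and 1 lower, where 3.61% and 3.78% of all genes were.

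At fixed weights 0 of 10 factors were past 1.5-fold between genotypes, with PBS (2.72% of all genes) or with ISO (7.38%). Klf4 came nearest, at 29.1 CPM in WT and 42.0 in B2AR-/- with PBS (log2 ratio 0.53, 0.40 to 0.66), and at 26.5 and 39.7 with ISO (0.58, 0.43 to 0.74). In the macrophage-like cluster Klf4 was 67.2 CPM in WT+PBS, 55.3 in WT+ISO, 94.9 in B2AR-/-+PBS and 91.3 in B2AR-/-+ISO. In cluster 4 it was 43.6, 45.1, 65.9 and 57.9 CPM in the same order. The counting intervals of the ratio between genotypes lay above 0 in both clusters, with PBS and with ISO. The B2AR-/- libraries also held more cells of cluster 1, at 27.1% and 23.5%.

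Gfi1 at fixed weights was 15.5 CPM in WT and 15.6 in B2AR-/- with PBS, and 16.6 and 13.6 with ISO (log2 ratio -0.28, -0.52 to -0.05). In cluster 6, which held most of its UMIs, Gfi1 was 78.2 CPM in WT+PBS, 78.7 in WT+ISO, 73.4 in B2AR-/-+PBS and 59.8 in B2AR-/-+ISO. That cluster made up 7.56%, 11.3%, 5.02% and 4.17% of the cells in the same order. Cebpa in cluster 6 was 85.3, 68.8, 73.7 and 60.9 CPM in that order. Irf8 at fixed weights with ISO was 24.1 CPM in both genotypes. At fixed weights the Cebpe ratio of B2AR-/- over WT was 0.01 on the log2 scale with PBS (-0.05 to 0.07). With ISO it was -0.13 (-0.19 to -0.07). The Cebpa ratio was -0.12 with PBS (-0.28 to 0.04) and -0.20 with ISO (-0.39 to -0.01).

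**Figure D4:**
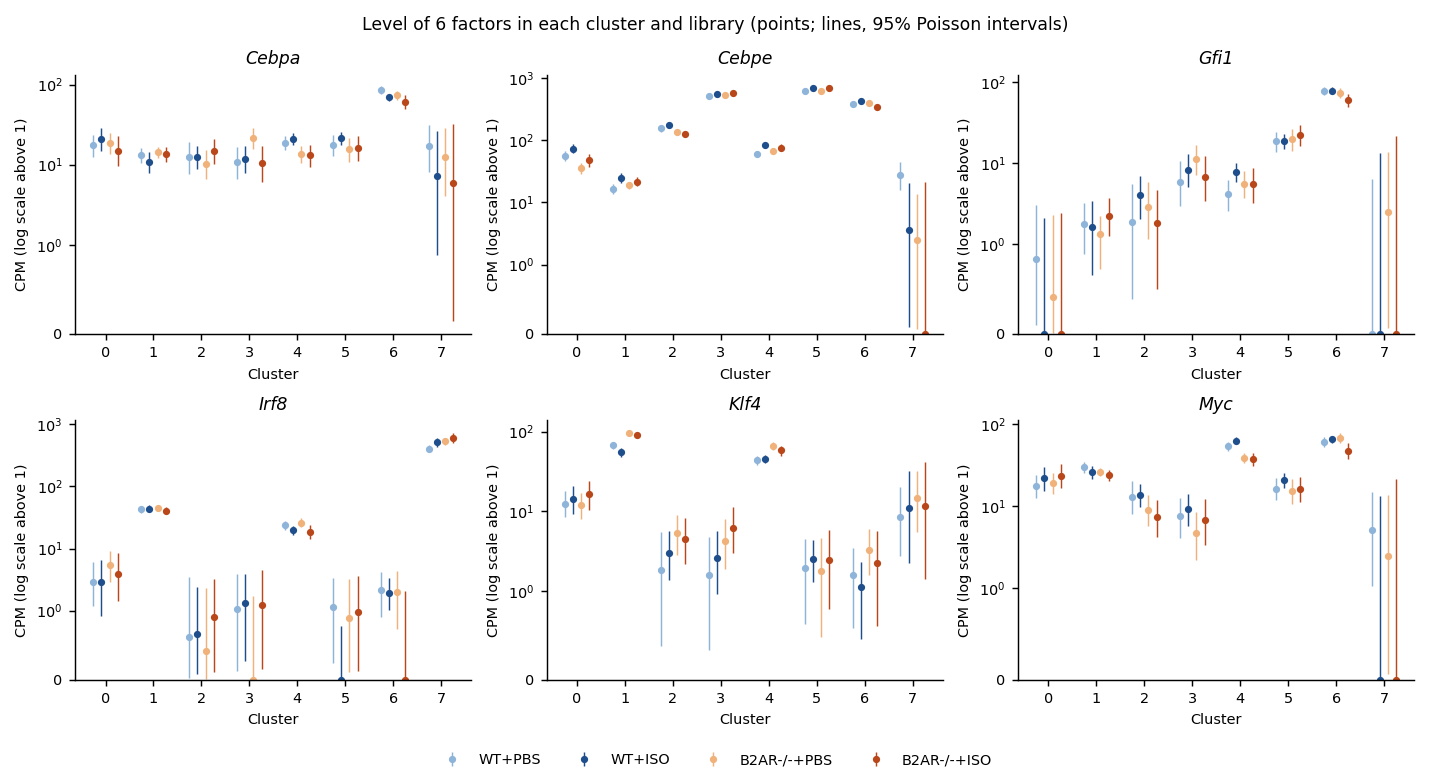
CPM of Cebpa, Cebpe, Gfi1, Irf8, Klf4 and Myc (panels, axis logarithmic above 1) in each cluster and library, as points with exact Poisson intervals. Gfi1 is at 59.8 to 78.7 CPM in cluster 6 and at most 22.2 elsewhere, whereas Cebpa outside cluster 6 and Myc in clusters 4 and 6 overlap between clusters. Klf4 in clusters 1 and 4 is higher in the B2AR-/- libraries than in the WT libraries.

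Myc was lower in the libraries labelled B2AR-/-, and more so with ISO. At fixed weights its log2 ratio of B2AR-/- over WT was -0.16 with PBS (-0.30 to -0.02) and -0.45 with ISO (-0.61 to -0.29). In cluster 4 Myc was 53.1 CPM in WT+PBS, 62.4 in WT+ISO, 38.9 in B2AR-/-+PBS and 37.3 in B2AR-/-+ISO. Both WT libraries thus stood above both B2AR-/- libraries there. In whole libraries 62.2% of all genes were separated in either direction, and the share within a cluster is not given here. In cluster 6 Myc was 60.5, 65.3, 68.1 and 47.0 CPM in the same order, with B2AR-/-+ISO alone below the rest.

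Most of the growth genes were lower too in the libraries labelled B2AR-/-. Their list holds genes of nucleolar, polyamine and nucleotide synthesis proteins, beside Cdk4 of the cell cycle and Ldha of glycolysis. It was chosen with earlier results of these data known, so its counts are a description. Of 15, 10 were lower by 1.5-fold in B2AR-/-+ISO than in WT+ISO in whole libraries, and 10 were at fixed weights, where 6.83% and 3.78% of all genes were lower by as much. The median log2 ratio of the 15 was -0.93, and -0.70 at fixed weights, against -0.02 and -0.04 over all genes. Gnl3, a nucleolar GTPase, was 32.7 CPM in WT+PBS, 44.5 in WT+ISO, 20.7 in B2AR-/-+PBS and 15.8 in B2AR-/-+ISO. Nolc1, a nucleolar phosphoprotein, was 66.2, 78.9, 36.8 and 33.8 CPM in that order, and Srm, spermidine synthase, 100.1, 125, 66.2 and 58.8. Both WT libraries stood above both B2AR-/- libraries for each of these 3 genes, where 62.2% of all genes were separated in either direction. Ldha, of glycolysis, went the other way, at 1039, 859, 1196 and 1173 CPM. With PBS, 5 of the 15 were lower by 1.5-fold in B2AR-/-, where 1.52% of all genes were, with a median of -0.53. With ISO in WT cells 13 of 15 lay above 0, with a median of 0.20, and 0 were past 1.5-fold. In B2AR-/- cells 15 of 15 lay below 0 with ISO, with a median of -0.17. Over all genes the medians were -0.02 in WT and -0.04 in B2AR-/-, and the shares of all genes above or below 0 are not given here. Some signs lay within counting error, as for Fbl in WT (0.01, -0.07 to 0.10) and Odc1 in B2AR-/- (-0.07, -0.16 to 0.02). At fixed weights Odc1 (0.02) and Ldha (0.003) lay above 0 with ISO in B2AR-/- cells. The others ranged there from -0.25 for Gnl3 to -0.003 for Nolc1. These comparisons share libraries, so their signs are not independent. The 22 cell cycle genes had medians of -0.19 with PBS and -0.46 with ISO between genotypes in whole libraries, and of 0.04 and -0.03 at fixed weights. Of 10 partners and antagonists of Myc, 8 had 100 UMIs, and 0 of these were past 1.5-fold in any of the 4 comparisons. Max, the obligate partner, was 38.1 to 42.3 CPM in all libraries, and Mxd1, an antagonist, 119.6 to 148.2.

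**Figure D5:**
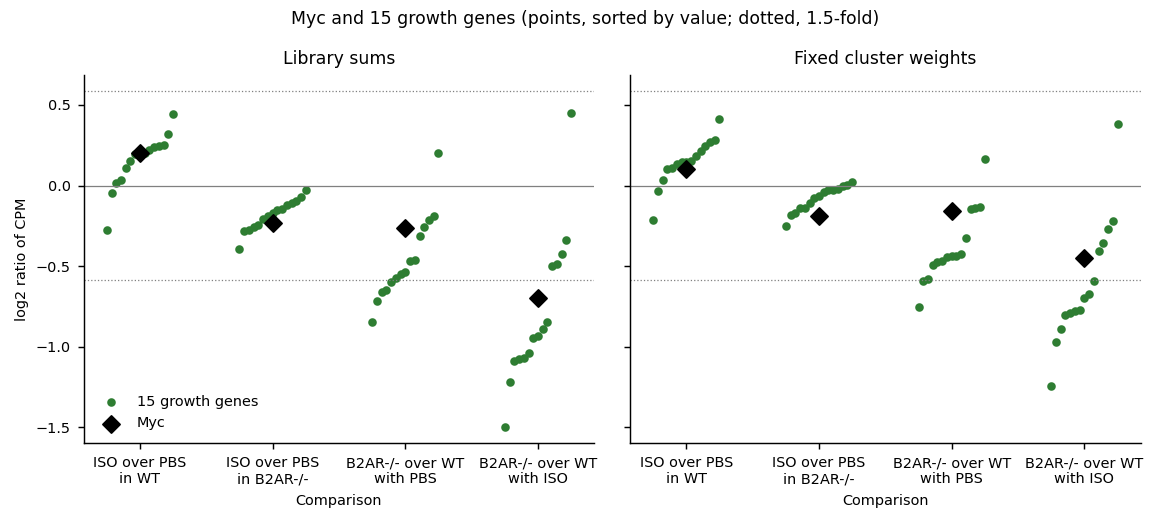
Log2 ratio of CPM for 15 growth genes (green points, sorted by value) and Myc (black diamonds) in the 4 comparisons, from library sums (left) and at fixed cluster weights (right), with dotted lines at 1.5-fold. For B2AR-/- over WT with ISO, 10 of the 15 genes lie below the lower dotted line in both panels, and Ldha is the green point above 0.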

How the data were processed

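Live CD11b+ cells from 4 cultures were profiled by 10x scRNA-seq with multiplexing tags. The values deposited by the authors are raw UMI counts, a whole number for each gene in each cell. The file header names Cell Ranger 7.0.0, and the submitters' processing notes Cell Ranger 6.0.0, Seurat and mm10. Treatment of introns is not given in the sources used here. The intervals cover counting error of the summed UMIs alone. Spread between cells and between cultures is not in them.

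A minimum of 200 genes and a maximum of 10% mitochondrial UMIs left 9303 of 9525 cells. Scrublet called 17 cells doublets (0.183%), too few to have worked, and they were kept. Cells scaled to 10000 UMIs were clustered with scanpy 1.11.5 and leidenalg 0.10.2 (2000 variable genes without the listed factors, 30 components, 15 neighbours, resolution 0.4, seed 0). A cluster was named where at least 3 markers of a class were in 10% of its cells, their mean log2 ratio was at least 1 and 1 of them was among the 10 leading genes. Counts were summed per library, or per cluster and library. Fixed weights are each cluster's share of the UMIs of the 4 libraries, and their intervals are normal approximations on counting error. The ratios were tested on simulated data drawn with counting error alone, so that test cannot speak to spread between cells or cultures. Gene positions and promoters are RefSeq's for GRCm38.p6.

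The 10 factors and all gene lists were chosen with earlier results of these data known. Named genes are the 10 factors, the 3 genes most like each factor, and up to 8 other factors past 1.5-fold with ISO in WT cells, taken by size of ratio, an order set after their values were seen. Members shown from the other lists were also chosen after their values were seen. Alternatives were other filters, scalings, clusterings, thinning depths, fold and UMI minimums. Some genes that this rule names are not reported here.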

Additional observations from a re-analysis of the deposited data

Results flagged for a closer look

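Of the 10 factors, 4 had ISO ratios of opposite sign in the 2 genotypes, and the share of all genes with opposite signs is not given here. The log2 ratio in WT minus that in B2AR-/- was 0.302 for Cebpa, -0.138 for Cebpb, 0.697 for Gfi1 and 0.436 for Myc. Gfi1 was higher with ISO in WT (16.2 and 22.6 CPM) and lower with ISO in B2AR-/- (11.98 and 10.33 CPM), and Cebpa (26.4 and 27.9, then 21.0 and 18.0) and Myc (33.6 and 38.7, then 28.0 and 23.8) had the same pattern. Cebpb was the reverse (1042 and 997, then 1093 and 1150). Each sign rests on 1 library per group, and the difference was not tested beyond counting error. The counting intervals of Cebpa in WT (0.08, -0.07 to 0.23) and of Gfi1 in B2AR-/- (-0.21, -0.47 to 0.04) held 0. At fixed cluster weights the signs remained opposite for Gfi1 and Myc, and for Cebpa and Cebpb they were alike. Irf8 was opposite in sign there, at 0.07 in WT (-0.11 to 0.24) and -0.12 in B2AR-/- (-0.29 to 0.05), with intervals that held 0.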

How the results depend on the processing

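No paired analysis was possible because no group holds a second library, so none could be left out either. The 1 factor past 1.5-fold with ISO in WT (Irf8) became 0 at fixed cluster weights, 0 at a fold of 2 and 0 without cluster 7, an alternative chosen after seeing the data. With equal weight per cell it was again 1, but Gfi1 (0.63) in place of Irf8 (-0.45). Irf8 turned from -0.67 to 0.0677 on the log2 scale at fixed cluster weights. The 0 factors with ISO in B2AR-/- became 1 (Irf8) with equal weight per cell. The 1 factor between genotypes with PBS (Klf4) became 0 at fixed cluster weights and 0 at a fold of 2. The 5 with ISO became 3 with equal weight per cell, 0 at fixed cluster weights and 2 at a fold of 2, and 6 without cluster 7. For ISO over PBS in both genotypes, the counts at fixed weights were 0 under 4 other clusterings and with called doublets removed, and Irf8 in WT then lay between -0.06 and 0.15. Cells with Gfi1 and Irf8 numbered 3 at 2000 UMIs, 0 at 1000 UMIs, and 4 at 4000 UMIs. The 8 factors that differed at least 4-fold between clusters, a limit set after seeing the values, were 8 at resolution 1.0. Of 320 single ratios from library sums under the alternatives, 271 lay inside the main counting interval and 48 outside it. The ratio of Irf8 given above was the 1 counted apart as reversed. Some of the 48 changed sign as well. At fixed weights Cebpb with ISO in WT went from -0.06 to 0.08. Gfi1 between genotypes with PBS went from -0.43 to 0.01. Of 100 at fixed weights, 99 lay inside the main interval and 1 outside, Cebpe with ISO in WT at resolution 1.0 (0.11). Depth limits Gfi1, Irf8 and Klf4 in clusters where they gave few UMIs, and cluster 7 (15 to 37 cells per library) throughout.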
